A study of Drosophila melanogaster with 9 samples.

Results

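Hsp70 and Hsp68 are the heat-inducible members of the 70 kDa chaperone family of Drosophila melanogaster. The genes described here are the 6 Hsp70 copies and Hsp68, taken by symbol and FlyBase identifier: 7 of the 17558 genes counted in each of 9 ovary libraries. Expression was measured by stranded mRNA sequencing of ovaries from females aged 3 days, reared at 25 °C. The protocol names 10 females per genotype, and no group had a heat treatment. Each of the 3 genotypes had 3 libraries. The mutant carried moe[G0415] over moe[NES], so that neither copy of the gene was wild type. The NES heterozygote carried moe[NES] over a w[1118] chromosome, and the null heterozygote carried moe[G0415] over w[1118]. Both heterozygotes therefore kept 1 copy of Moe from the w[1118] chromosome, and no group without a moe allele was analysed here. Moe encodes moesin, which links actin filaments to the plasma membrane, and by the title of the series the question is whether heat shock genes need it to be expressed.

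Hsp70 proteins bind unfolded stretches of other proteins and release them in a cycle driven by ATP hydrolysis. In flies the inducible copies are known for low transcription without stress, with an RNA polymerase paused just after the start site, and for strong induction by heat through the heat shock factor Hsf. Their always-present relatives, the Hsc70 genes, serve unstressed cells, and the ovary is known for loading chaperone RNA into the egg.

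The copies lie in a pair of clusters on the right arm of chromosome 3 (coordinates and annotation from BDGP6.54, from Ensembl). Hsp70Aa (FBgn0013275, chromosome 3R, 11954163 to 11956544, minus strand) and Hsp70Ab (FBgn0013276, 11958535 to 11960909, plus strand) form the 87A cluster and point away from each other. The 87C cluster holds Hsp70Ba (FBgn0013277, 12465453 to 12467776, minus strand), Hsp70Bbb (FBgn0051354, 12502510 to 12504856), Hsp70Bb (FBgn0013278, 12505793 to 12508139) and Hsp70Bc (FBgn0013279, 12509076 to 12511461), the last 3 of them on the plus strand. Hsp68 (FBgn0001230, 24055080 to 24057310, minus strand) stands alone at 95D. All 7 genes are annotated with 1 transcript of 1 exon, with no intron. Coding length was 1926 bases in the 87A copies, 1923 in the 87C copies and 1905 in Hsp68. The copies are near-identical, and how reads that map to several copies were counted is not given in the sources used here. A value of a single copy is uncertain for that reason, and the sum over the 6 copies is the main value for Hsp70. If such reads were left out of the counts, the sum is too low as well. Hsp70Ab overlaps the end of CG3281 on the opposite strand, and Hsp68 overlaps CG6000 and lncRNA:CR44097 on the opposite strand. The strand setting of the counting is not given either, so reads in those stretches may belong to either gene.

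Libraries held 31.8 to 43.6 M (1e6) counts, so that 1 count stood for 0.0229 to 0.0315 counts per 1e6 before scaling. Levels are given in CPM (counts per 1e6, scaled between libraries by TMM). The labels do not say that the 3 replicates of a genotype came from separate crosses, so a p-value here reflects only how much these samples vary, which may be technical. Moe was at 409 ± 28.3 CPM in the mutant, 694 ± 75.0 CPM in the NES heterozygote and 388 ± 44.7 CPM in the null heterozygote (SD, n = 3 each), and the counts do not tell its alleles apart. Of 6 germline markers 4 were matched, at 2388 to 3156 summed CPM, and none was at 0 in all 9 libraries. Eggshell and yolk genes of the follicle cells, 16 of 17 matched, took 3.14% to 4.69% of counts in the mutant, 2.10% to 4.31% in the NES heterozygote and 0.771% to 3.98% in the null heterozygote, where replicates 1 and 3 held 0.771% and 0.940%. Summed muscle markers lay between 565 and 750 CPM in all 9 libraries. Midgut markers reached 25.6 summed CPM in mutant replicate 3 and at most 1.24 CPM in the 6 heterozygote libraries. Of 8 testis markers 3 were at 0 in all 9 libraries (Mst84Da, Mst98Ca and dj), as was Lsp1alpha among the 7 of the fat body. In such whole-tissue samples, fewer cells of a type and less RNA per cell cannot be told apart.

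The Hsp70 sum was lower in mutant ovaries than in either heterozygote by point estimate, but it did not pass the threshold of adjusted p = 0.05 in edgeR. Mutant libraries had 11.5, 21.2 and 7.87 CPM of summed Hsp70. The NES heterozygote libraries had 23.7, 66.4 and 46.9 CPM, and the null heterozygote libraries had 42.8, 50.3 and 49.5 CPM. All 3 mutant libraries lay below all 6 heterozygote libraries, with the narrowest gap between mutant replicate 2 and NES heterozygote replicate 1. Behind these levels stood 319 to 802 counts per library in the mutant, 845 to 2243 in the NES heterozygote and 1549 to 1953 in the null heterozygote. Group means were 13.5 ± 6.89 CPM in the mutant, 45.7 ± 21.4 CPM in the NES heterozygote and 47.5 ± 4.10 CPM in the null heterozygote (SD, n = 3 each).

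**Figure D1:**
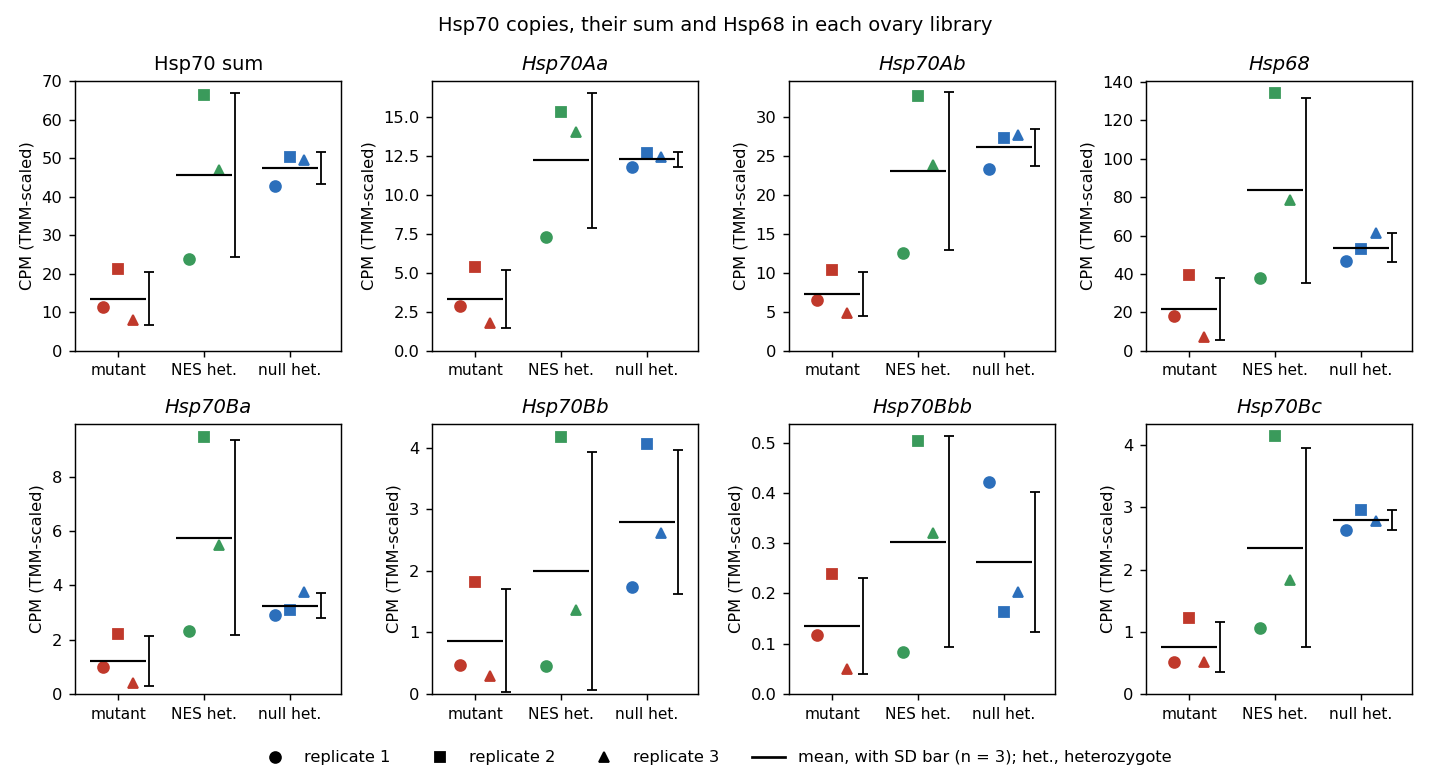
TMM-scaled CPM (y axis, from 0, a separate scale in each panel) of the Hsp70 sum, each Hsp70 copy and Hsp68 in mutant, NES heterozygote and null heterozygote ovaries (x axis); symbols mark replicates, horizontal lines group means and vertical bars the SD (n = 3). The 3 mutant values of the Hsp70 sum, 7.87 to 21.2 CPM, sit below all 6 heterozygote values, while for Hsp68 mutant replicate 2 (39.4 CPM) lies above NES heterozygote replicate 1 (37.8 CPM).

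Set against the mean of both heterozygotes, the mutant minus heterozygote log2 fold change of the Hsp70 sum was -1.79, a 3.45-fold lower level (SE 0.39, 95% interval -2.67 to -0.90, edgeR quasi-likelihood adjusted p = 0.0744 over 8637 features). Against the NES heterozygote alone it was -1.76 (interval -2.72 to -0.79, adjusted p = 0.13), and against the null heterozygote alone -1.81 (interval -2.78 to -0.85, adjusted p = 0.0974). The mutant libraries are shared by these comparisons, so they are not independent of each other. The call depended on the tool: DESeq2 gave an adjusted p of 2.35e-05 against the mean of both heterozygotes at the same fold change of -1.79. Without null heterozygote replicate 2 edgeR also called it (adjusted p = 0.0147), in a fit that called 3048 genes (1460 of them lower), against 136 with all libraries. With the eggshell and yolk share as a covariate the log2 fold change was -1.92 (adjusted p = 0.0135, edgeR), and the part of that share in the result was not tested further.

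The 87A cluster fell in the mutant when set against the mean of both heterozygotes, by 3.49-fold. Its summed level was 9.40, 15.7 and 6.59 CPM in mutant libraries. In the NES heterozygote it was 19.8, 48.1 and 37.9 CPM, and in the null heterozygote 35.1, 40.01 and 40.1 CPM. No mutant library reached the lowest heterozygote library. The log2 fold change was -1.80 (SE 0.34, adjusted p = 0.0445, edgeR) against the mean of both heterozygotes, -1.74 (adjusted p = 0.0837) against the NES heterozygote and -1.86 (adjusted p = 0.0583) against the null heterozygote. The call was narrow: it was lost in 9 of 18 alternative settings, among them the omission of mutant replicate 1 (adjusted p = 0.238), mutant replicate 3 (0.19), NES heterozygote replicate 2 (0.0839) or 3 (0.0988), or null heterozygote replicate 1 (0.0908) or 3 (0.106).

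The 87C cluster had a like fold change with a wider error. Mutant libraries had 2.08, 5.498 and 1.28 CPM over the 4 copies. The NES heterozygote had 3.93, 18.3 and 9.01 CPM, and the null heterozygote 7.70, 10.3 and 9.37 CPM. Mutant replicate 2 lay above NES heterozygote replicate 1, and all mutant libraries lay below those of the null heterozygote. The log2 fold change was -1.72 (SE 0.58) against the mean of both heterozygotes, and adjusted p was 0.22 there, 0.322 against the NES heterozygote and 0.26 against the null heterozygote (edgeR). Without mutant replicate 2 the log2 fold change against the mean was -2.53, and without NES heterozygote replicate 2 that against the NES heterozygote was -1.13.

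Taken singly, all 7 genes had a negative log2 fold change in each comparison of the mutant, and 1 passed the edgeR test in 1 comparison. That was Hsp70Ab, set against the mean of both heterozygotes, where 0.486% of all 8642 genes tested were called lower. None of the 7 was called against the NES heterozygote, where 0.393% of genes were called lower, or against the null heterozygote, where 0.428% were. At an unadjusted p below 0.05 the 7 genes gave 5 lower against the mean (6.98% of all genes), 5 against the NES heterozygote (4.49%) and 3 against the null heterozygote (7.80%). DESeq2 called 4 lower against the mean (2.33% of genes), 3 against the NES heterozygote (1.69%) and 3 against the null heterozygote (2.52%). The median of the 7 log2 fold changes was -1.76 against the mean, -1.67 against the NES heterozygote and -1.70 against the null heterozygote, beside 0.01, 0.00 and 0.00 over all genes tested. All 7 genes passed the low-count filter. Hsp70Bbb reached its minimum count of 10 only in null heterozygote replicate 1 (16 counts) and NES heterozygote replicates 2 and 3 (17 and 11). It had at most 9 counts in a mutant library. The filter thus favoured a lower level of Hsp70Bbb in the mutant, and its negative values add no support.

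Hsp70Ab was the most abundant copy in the counts. It had 6.52, 10.3 and 4.84 CPM in mutant libraries, against 12.5, 32.8 and 23.8 CPM in the NES heterozygote and 23.3, 27.3 and 27.7 CPM in the null heterozygote. It fell by 1.76 on the log2 scale against the mean of both heterozygotes (adjusted p = 0.0448, edgeR), a call lost in 10 of 18 alternative settings. Leaving out mutant replicate 1, 2 or 3 gave adjusted p of 0.238, 0.0617 and 0.211. Leaving out NES heterozygote replicate 2 or 3 gave 0.0786 and 0.1, and leaving out null heterozygote replicate 1 or 3 gave 0.0926 and 0.108. Against 1 heterozygote at a time its log2 fold change was -1.67 for the NES heterozygote (adjusted p = 0.0944) and -1.85 for the null heterozygote (adjusted p = 0.0583).

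Its divergent partner Hsp70Aa stood at 2.88, 5.37 and 1.75 CPM in the mutant. The NES heterozygote had 7.28, 15.4 and 14.0 CPM and the null heterozygote 11.8, 12.7 and 12.4 CPM of Hsp70Aa. As for Hsp70Ab, no mutant library overlapped a heterozygote library. The log2 fold change of Hsp70Aa was -1.88 against the mean of both heterozygotes (adjusted p = 0.0528, edgeR), -1.88 against the NES heterozygote (adjusted p = 0.0911) and -1.89 against the null heterozygote (adjusted p = 0.0815).

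Hsp70Ba was the most abundant copy of 87C in every heterozygote library but null heterozygote replicate 2. It had 0.982, 2.22 and 0.420 CPM in the mutant, against 2.33, 9.48 and 5.48 CPM in the NES heterozygote and 2.90, 3.08 and 3.77 CPM in the null heterozygote. Mutant libraries were again the lowest 3 of 9. The log2 fold change of Hsp70Ba was -2.26 against the NES heterozygote (adjusted p = 0.197, edgeR) and -1.43 against the null heterozygote (adjusted p = 0.295). Without mutant replicate 2 these values were -3.03 and -2.21.

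Hsp70Bc and Hsp70Bb were also low in counts, and their mutant libraries overlapped with those of at least 1 heterozygote. Hsp70Bc had 0.514, 1.22 and 0.518 CPM in the mutant, against 1.07, 4.15 and 1.84 CPM in the NES heterozygote and 2.64, 2.95 and 2.79 CPM in the null heterozygote. Its log2 fold change was -1.77 against the mean of both heterozygotes (adjusted p = 0.143, edgeR). Hsp70Bb had 0.468, 1.82 and 0.296 CPM in the mutant, against 0.449, 4.18 and 1.37 CPM in the NES heterozygote and 1.74, 4.06 and 2.61 CPM in the null heterozygote. For Hsp70Bb, NES heterozygote replicate 1 was as low as mutant replicate 1, and the log2 fold change against the mean was -1.46 (adjusted p = 0.356). Against the NES heterozygote it was -1.21, but -0.08 without NES heterozygote replicate 2 and -2.38 without mutant replicate 2. Hsp70Bbb had 2 to 17 counts per library, and its groups overlapped: 0.0494 to 0.238 CPM in the mutant, 0.0843 to 0.503 CPM in the NES heterozygote and 0.162 to 0.422 CPM in the null heterozygote.

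Counting the genes whose mutant libraries all lay below all 6 heterozygote libraries gave Hsp70Aa, Hsp70Ab and Hsp70Ba, 3 of 7, beside 3.29% of all genes tested. Against the NES heterozygote alone it was the same 3 genes (11.4% of all genes). Against the null heterozygote alone it was 5 of 7, with Hsp70Bc and Hsp68 added (7.80% of all genes).

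**Figure D2:**
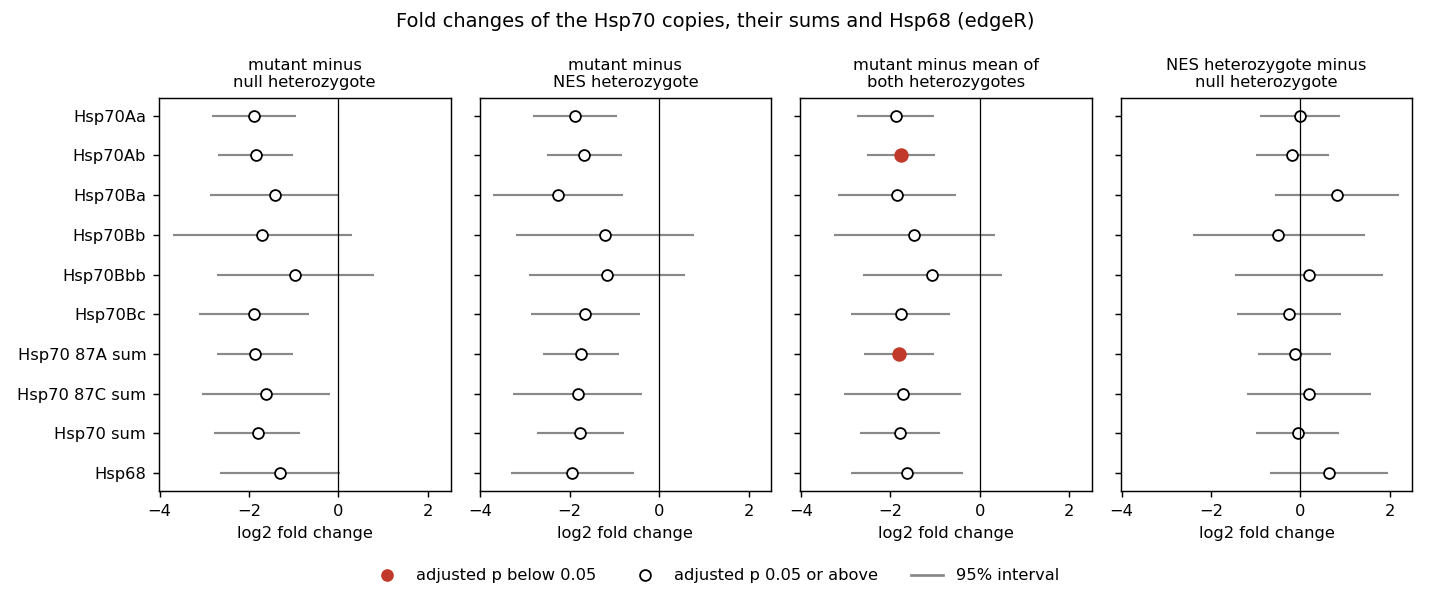
edgeR log2 fold change (x axis) of each Hsp70 copy, the 2 cluster sums, the Hsp70 sum and Hsp68 (y axis) in the 3 comparisons of the mutant and in the NES heterozygote minus null heterozygote comparison; lines are 95% intervals and filled points have adjusted p below 0.05. All mutant estimates lie left of 0, and the filled points are Hsp70Ab (-1.76) and the 87A sum (-1.80) against the mean of both heterozygotes.

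Hsp68, the relative of Hsp70 at 95D that heat also induces, scattered widely between libraries of a genotype. Mutant libraries had 18.3, 39.4 and 7.33 CPM. The NES heterozygote had 37.8, 134 and 78.7 CPM, and the null heterozygote had 46.6, 52.9 and 61.5 CPM. Mutant libraries were below every null heterozygote library, and mutant replicate 2 was just above NES heterozygote replicate 1. Means were 21.7 ± 16.3 CPM in the mutant, 83.5 ± 48.4 CPM in the NES heterozygote and 53.6 ± 7.47 CPM in the null heterozygote (SD, n = 3 each). Hsp68 did not pass the test against the mean of both heterozygotes (log2 fold change -1.63, SE 0.55, interval -2.87 to -0.38, adjusted p = 0.22, edgeR). Neither did it against the NES heterozygote (-1.95, interval -3.32 to -0.57, adjusted p = 0.246) or the null heterozygote (-1.31, interval -2.66 to 0.04, adjusted p = 0.3). DESeq2 did not call it either (adjusted p = 0.0577, 0.0597 and 0.222 for the same 3 comparisons). One library weighed on the size: without mutant replicate 2 the log2 fold change was -2.39 against the mean, -2.71 against the NES heterozygote and -2.07 against the null heterozygote, without a call (adjusted p = 0.131 against the mean). Without null heterozygote replicate 2, edgeR called Hsp68 against the mean (-1.64, adjusted p = 0.0482), in a fit that called 1460 genes lower.

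The heterozygotes were not told apart by these genes. The NES minus null heterozygote log2 fold change was -0.06 for the Hsp70 sum, with an interval of -0.99 to 0.87 (adjusted p = 0.997, edgeR), and 0.64 for Hsp68, with an interval of -0.69 to 1.96 (adjusted p = 0.901). Intervals this wide leave room for a change of nearly 2-fold in Hsp70 either way. Of the 7 genes 4 had a negative value, with a median of -0.01, and 0 were called by edgeR or DESeq2, with 0 at an unadjusted p below 0.05. Of all genes tested 0.833% were called in this comparison by edgeR, 3.95% by DESeq2, and 9.55% had an unadjusted p below 0.05. The highest library of the Hsp70 sum was 2.69-fold the lowest in the mutant, 2.80-fold in the NES heterozygote and 1.17-fold in the null heterozygote. For Hsp68 the same ratio was 5.38-fold in the mutant, 3.55-fold in the NES heterozygote and 1.32-fold in the null heterozygote. Whether these spreads differ was not tested.

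Within a genotype the 7 genes ranked the libraries much alike. Mutant replicate 2 was the highest mutant library for 7 of 7 genes, beside 41.6% of all genes tested, and mutant replicate 3 the lowest for 6 of 7, beside 26.9%. NES heterozygote replicate 2 was the highest of its group for 7 of 7 (40.9% of all genes), and replicate 1 the lowest for 7 of 7 (38.4%). In the null heterozygote replicate 1 was the lowest for 6 of 7 (31.4%), while the highest place was split between the libraries. Since copies can share reads, the 7 are not independent. Of the 9 other heat-inducible genes tested, NES heterozygote replicate 2 was the highest for 9 and replicate 1 the lowest for 8. Mutant replicate 2 was the highest for 5 of these 9 and mutant replicate 3 the lowest for 4. Null heterozygote replicate 1 was the lowest for 3 of them. The SD of log2 levels within groups, pooled over the 3 genotypes, was 0.592 for the Hsp70 sum and 0.866 for Hsp68, above those of 95.2% and 98.4% of genes tested, whose median was 0.170. The eggshell and yolk share did not rank the libraries as Hsp70 did in every genotype. In the mutant replicate 2 had the lowest share (3.14%) and the highest Hsp70. In the NES heterozygote replicate 2 had the highest of both (4.31%), and so had replicate 2 in the null heterozygote (3.98%, with 50.3 CPM of summed Hsp70).

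The proportions among the copies varied less than their levels, as the plot of shares by library shows. The 87A copies took 79.9% ± 5.12 of all Hsp70 counts in the mutant, 78.9% ± 5.73 in the NES heterozygote and 80.9% ± 1.21 in the null heterozygote (SD, n = 3 each), and 72.4% to 83.7% over all 9 libraries. Hsp70Ab alone took 55.7% ± 6.42 in the mutant, 51.0% ± 1.74 in the NES heterozygote and 54.9% ± 0.869 in the null heterozygote. The share of Hsp70Ba ranged from 5.33% to 10.5% in the mutant, 9.82% to 14.3% in the NES heterozygote and 6.13% to 7.63% in the null heterozygote. Its 3 NES heterozygote libraries lay above the 3 null heterozygote libraries, and this difference was not tested. Hsp70Bbb took 0.323% to 1.12% over all libraries, although its annotated length is like that of the other copies. These shares are of counts as the authors assigned them, so an uneven loss of reads among near-identical copies would also shape them.

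**Figure D3:**
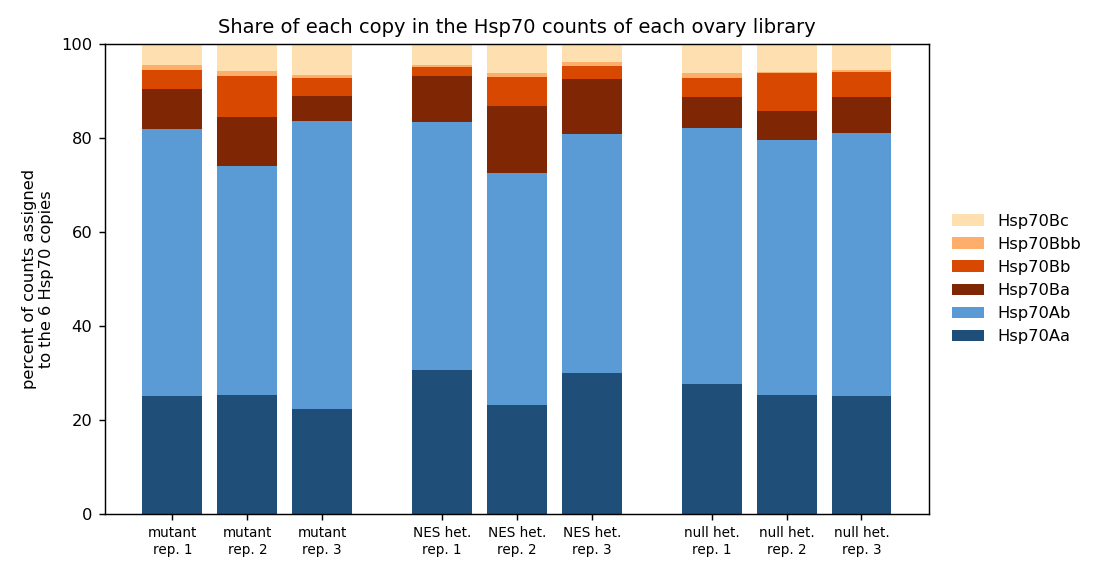
Percent of the counts assigned to the 6 Hsp70 copies (y axis, 0 to 100) that fell on each copy in each of the 9 libraries (x axis, mutant, NES heterozygote, null heterozygote); blue shades are the 87A copies and brown to cream shades the 87C copies. The blue part spans 72.4% to 83.7% in all 9 libraries, and the darkest brown part, Hsp70Ba, is larger in the NES heterozygote (9.82% to 14.3%) than in the null heterozygote (6.13% to 7.63%).

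Per length of transcript, Hsp68 was near or above the whole Hsp70 sum in the counts as deposited. How reads shared by several Hsp70 copies were counted is not given. A loss of such reads would lower the Hsp70 sum and its rank and raise the ratios below, and this was not tested. The level of Hsp68 per kb was 1.68, 1.97 and 0.985 times that of the Hsp70 sum in mutant libraries. It was 1.68, 2.14 and 1.78 times in the NES heterozygote and 1.15, 1.11 and 1.31 times in the null heterozygote. The NES heterozygote libraries all lay above those of the null heterozygote in this ratio, and mutant libraries spanned both. The difference was not tested. In levels per kb, the Hsp70 sum was at 5.73 ± 2.92 CPM per kb in the mutant, 19.4 ± 9.05 in the NES heterozygote and 20.1 ± 1.74 in the null heterozygote. That was above 27.8%, 48.9% and 49.9% of 8446 genes ranked, those that passed the low-count filter and had an annotated length. Hsp68 was at 9.71 ± 7.31 CPM per kb in the mutant, 37.4 ± 21.7 in the NES heterozygote and 24.0 ± 3.35 in the null heterozygote, above 34.2%, 70.2% and 55.5% of them. The cytosolic Hsc70-4, the main always-present relative, was at 2218 ± 95.02 CPM per kb in the mutant, 2005 ± 189 in the NES heterozygote and 1977 ± 407 in the null heterozygote. Hsc70-3, the relative of the endoplasmic reticulum (BiP), was at 530 ± 50.2, 506 ± 64.3 and 441 ± 89.1 CPM per kb in the mutant, the NES heterozygote and the null heterozygote. Of the 8 Hsc70 family genes listed, 6 were tested and 0 were called in any comparison of the mutant by edgeR or DESeq2, with 0 at an unadjusted p below 0.05. Their median log2 fold changes were 0.13 against the mean of both heterozygotes, 0.09 against the NES heterozygote and 0.14 against the null heterozygote.

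Of the other heat-inducible genes, 11 were listed and 9 tested. Over all genes tested edgeR called 0.486% lower against the mean, 0.393% against the NES heterozygote and 0.428% against the null heterozygote. In each of these comparisons 1 of the 9 fell by edgeR. That was Hsp26, a small heat shock protein gene, at 680 ± 30.1 CPM in the mutant, 1530 ± 264 CPM in the NES heterozygote and 1188 ± 81.6 CPM in the null heterozygote. Its log2 fold change was -0.99 against the mean of both heterozygotes (adjusted p = 0.00478), and against the null heterozygote alone (-0.80, adjusted p = 0.0198) the call was lost in 6 of 19 settings. Those 6 left out any mutant library (adjusted p = 0.0823 to 0.0983) or null heterozygote replicate 1 (0.0554), replicate 3 (0.0757) or both (0.11). The median log2 fold change of the 9 was -0.47 against the mean, -0.52 against the NES heterozygote and -0.42 against the null heterozygote, smaller in size than the medians of the 7 Hsp70 and Hsp68 genes given above. DESeq2 called 5 of the 9 lower against the mean (Hsp23, Hsp26, Hsp27, DnaJ-1 and stv), beside 2.33% of all genes. Hsp23, another small heat shock protein gene, averaged 13.9 CPM in the mutant, 45.8 CPM in the NES heterozygote and 32.8 CPM in the null heterozygote (log2 fold change -1.48 against the mean, adjusted p = 0.137, edgeR). The co-chaperone gene stv averaged 9.58, 15.4 and 22.1 CPM in the mutant, the NES heterozygote and the null heterozygote. Hsp27 averaged 714, 937 and 849 CPM and DnaJ-1, an Hsp40 co-chaperone, 229, 330 and 307 CPM in the same order. Hsp83, the fly Hsp90 gene, averaged 4682, 4804 and 4640 CPM, and Hsp22 had 0 counts in all 9 libraries.

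**Figure D4:**
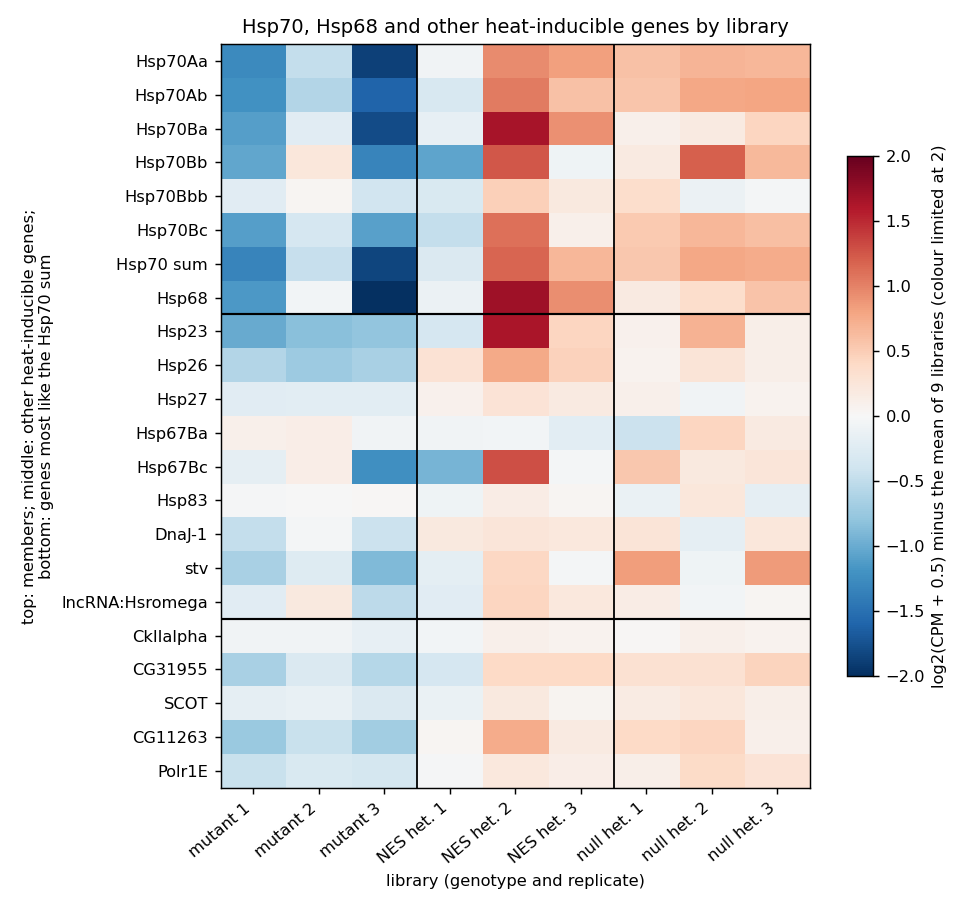
Log2(CPM + 0.5) minus the mean of the 9 libraries (colour, limited at 2 either way) of the 7 genes and the Hsp70 sum, the other heat-inducible genes tested and the 5 genes most like the Hsp70 sum (rows), in each library (columns). The rows of Hsp70Aa, Hsp70Ab and Hsp70Ba are blue in all 3 mutant libraries and darkest in mutant replicate 3. NES heterozygote replicate 2 is the reddest column. The rows of Hsp83 and of CkIIalpha, the gene most like the Hsp70 sum, are both nearly blank.

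The proteins that work with Hsp70 and those that control its genes showed no calls by edgeR. Of 17 genes listed as co-chaperones, with Hsp83 among them, 16 were tested and 0 were called. Against the mean of both heterozygotes 3 were lower and 0 higher at an unadjusted p below 0.05. DESeq2 called 2 lower there, DnaJ-1 and stv. These 2 and Hsp83 were also among the heat-inducible genes above, so they are not further evidence. The most abundant co-chaperones listed besides Hsp83 were Droj2 and Stip1. Droj2, an Hsp40, was at 834 CPM in the mutant, 911 CPM in the NES heterozygote and 917 CPM in the null heterozygote. Stip1, which bridges Hsp70 and Hsp90, was at 522, 518 and 518 CPM in the same order. Of 16 genes of the transcriptional control of Hsp70, which include pausing factors, elongation factors and Hsf, 16 were tested and 0 called by edgeR or DESeq2, with 2 lower at an unadjusted p below 0.05 against the mean. Against the mean, 6.98% of all genes tested were lower at that unadjusted p, and DESeq2 called 2.33% lower. Hsf itself averaged 165 CPM in the mutant, 191 CPM in the NES heterozygote and 199 CPM in the null heterozygote. Trl, which encodes the GAGA factor bound at Hsp70 promoters, averaged 16.8, 15.7 and 13.5 CPM. In this list 13 of 16 log2 fold changes against the mean were negative, with a median of -0.11, beside 49.1% negative over all genes tested. The most abundant were fs(1)h, a bromodomain protein gene, at 393, 450 and 458 CPM, and Parp1, the poly(ADP-ribose) polymerase gene, at 261, 230 and 220 CPM.

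Genes beside the clusters were not called by edgeR in any comparison of the mutant. Over all genes tested edgeR called 1.57% in either direction against the mean of both heterozygotes. The shares were 0.972% against the NES heterozygote and 1.25% against the null heterozygote, so a lack of calls says little about so few genes. The 2 nearest genes on each side of each locus and those overlapping one made 16, of which 13 were tested. CG31211, 125 bases from Hsp70Aa, averaged 79.6 CPM in the mutant, 66.5 CPM in the NES heterozygote and 66.1 CPM in the null heterozygote. CG3281, which overlaps the end of Hsp70Ab, averaged 30.1, 33.2 and 31.8 CPM. CG6000, which overlaps Hsp68, averaged 2.66, 2.64 and 2.63 CPM. Pisd, 1488 bases from Hsp68, averaged 114, 130 and 132 CPM. Its mutant libraries lay below all 6 heterozygote libraries, as did those of 3.29% of all genes tested, while the other neighbours tested overlapped. SMC1, the cohesin subunit gene on the other side of Hsp68, averaged 149, 174 and 199 CPM. Octbeta3R, 109 bases from Hsp70Bc on the opposite strand, had 15 counts in the mutant, 3 counts in the NES heterozygote and 45 counts in the null heterozygote over 3 libraries each. It passed the low-count filter only through the null heterozygote libraries, where it was highest, so the filter favoured a difference between the heterozygotes. Between these edgeR called it lower in the NES heterozygote (adjusted p = 0.0147), beside 0.833% of all genes called in either direction. The ratio of null over NES heterozygote was 14.9, with a 95% counting interval of 4.77 to 74.8. That call was lost in 7 of 18 alternative settings, among them those without NES heterozygote replicate 1 (adjusted p = 0.0862), 2 (0.0882) or 3 (0.0947) and without null heterozygote replicate 3 (0.0707). The noncoding lncRNA:alphagamma-element:CR32865, between Hsp70Ba and the other 87C copies, had 18 counts in the mutant, 26 in the NES heterozygote and 8 in the null heterozygote.

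The genes whose levels followed the Hsp70 sum most closely over the 9 libraries were CkIIalpha (Pearson r of log2(CPM + 0.5), 0.963), CG31955 (0.954), SCOT (0.947), CG11263 (0.936) and Polr1E (0.916), of 8635 genes compared. The 9 points hold the 3 genotypes, so a gene that differs between genotypes gains a high r from that alone. The reverse holds too: these genes were picked by r with a sum that was lowest in the mutant libraries. A fall in the mutant was thus favoured by the choice, and the calls below are no independent support. Of all genes tested 0.486% were called lower by edgeR against the mean of both heterozygotes. CkIIalpha, the catalytic subunit of casein kinase 2, averaged 507 CPM in the mutant, 558 CPM in the NES heterozygote and 568 CPM in the null heterozygote. Polr1E, an RNA polymerase I subunit gene, fell against the mean of both heterozygotes (68.7 CPM in the mutant, 95.8 CPM in the NES heterozygote and 106 CPM in the null heterozygote; log2 fold change -0.56, adjusted p = 0.0155, edgeR), a call lost without mutant replicate 1 (0.101) or 3 (0.0854). CG11263 fell in the same comparison (7.92 CPM in the mutant, 16.0 CPM in the NES heterozygote and 15.7 CPM in the null heterozygote; adjusted p = 0.0405), a call lost in 8 settings, among them those without mutant replicate 1, 2 or 3 (0.217, 0.0881 and 0.201), NES heterozygote replicate 3 (0.0674) or null heterozygote replicate 1 or 3 (0.0926 and 0.067). Among heat-inducible genes the closest were Hsp23 (r = 0.865, rank 27) and Hsp26 (r = 0.848, rank 37), while Hsp83 had r = 0.173 and Hsp67Ba -0.011. The others tested had r between 0.772 (Hsp67Bc) and 0.823 (stv).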

How the data were processed

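RNA from ovaries was extracted with TRIzol, made into stranded TruSeq mRNA libraries and read on a HiSeq 2500 instrument, per the labels' protocols. BDGP6 is the build, and HISAT2 2.0.4, HTSeq, SAMtools 0.1.19, Trimmomatic 0.36 and FastQC are the tools, listed in the submitters' processing notes. Annotation release, strand setting and the handling of multiply mapped reads: not given in the sources used. The authors deposited raw read counts per gene, 1 file per library, not normalized, with 0 entries that name no gene. Of 17558 identifiers, 17252 matched the annotation used for symbols and coordinates.

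The genotype label set each library's group. In R 4.3.3, edgeR 4.0.16 was run on the counts with filterByExpr (minimum count 10, minimum total 15), TMM, and the quasi-likelihood test over all 9 libraries with 1 coefficient per genotype, adjusted by Benjamini-Hochberg over all features tested. The Hsp70 sum and the cluster sums replaced the copies as rows of the whole table (8637 and 8638 features, 8642 with the copies apart). Standard errors are the size of the log2 fold change over the square root of F. The biological coefficient of variation was 20.1%. Counting intervals are exact, at 95%, and cover counting error only. The procedure was tested on simulated counts with known changes. All genes were simulated at the common value of 20.1%, so that test does not cover genes that vary more, such as Hsp70 and Hsp68. No 2 libraries of the same genotype agreed within sampling noise (chi-square per degree of freedom 17.2 to 299).

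The genes and lists were chosen with earlier results of these data known. Named genes were the 7 genes, called or most abundant list members, the nearest neighbours of each locus and the 5 closest in correlation. From the lists, Hsp67Bb, Hsc70Cb, l(2)tid, vas, nos, dec-1 and wupA were not analysed here. Haemocyte markers summed to 73.5 to 128 CPM in the mutant, 62.5 to 114 in the NES heterozygote and 30.5 to 96.0 in the null heterozygote, fat body markers to 17.8 to 55.3 CPM over all libraries and testis markers to 4.46 to 8.24 CPM. Alternatives were DESeq2 1.42.0, other scalings, other low-count filters, the eggshell and yolk share as a covariate, fits with only the groups compared, a replicate block, and leaving libraries out.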

Additional observations from a re-analysis of the deposited data

How the results depend on the processing

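Values are log2 fold changes with adjusted p in parentheses, edgeR unless named. No comparison of the mutant changed sign for any of the 7 genes or their sums under the 17 to 19 alternatives run for each. The 4 copies of 87C have no value with the filter at a mean of 5 CPM, which removed them, nor has Hsp70Bbb in fits of the mutant with 1 heterozygote. The Hsp70 sum passed the threshold against the mean of both heterozygotes with DESeq2 (-1.79, 2.35e-05), with the eggshell and yolk covariate (-1.92, 0.0135) and without null heterozygote replicate 2 (-1.77, 0.0147). It passed against the NES heterozygote with DESeq2 (-1.76, 0.000684) and the covariate (-1.79, 0.00998), and against the null heterozygote with DESeq2 (-1.82, 0.000342), the covariate (-2.05, 0.0192) and without null heterozygote replicate 2 (-1.78, 0.0167). Hsp68 passed against the mean without null heterozygote replicate 2 (-1.64, 0.0482) and against the NES heterozygote with the covariate (-1.97, 0.0314). Leaving out 1 library at a time gave -2.27 to -1.51 against the mean, -2.24 to -1.39 against the NES heterozygote and -2.30 to -1.54 against the null heterozygote for the Hsp70 sum. For Hsp68 it gave -2.39 to -1.22, -2.71 to -1.43 and -2.07 to -0.90 in the same comparisons. Between the heterozygotes, where no gene of the 7 was called, leaving out 1 library gave -0.43 to 0.24 for the Hsp70 sum, 0.12 to 0.98 for Hsp68, -0.41 to 0.15 for 87A, -0.49 to 0.57 for 87C, -0.21 to 0.25 for Hsp70Aa, -0.52 to 0.11 for Hsp70Ab, -0.38 to 0.70 for Hsp70Bbb and -0.94 to 0.09 for Hsp70Bc, and the covariate gave -0.16 for 87C. The 87A call against the mean was also lost with a filter at a mean of 5 CPM (0.0706), without null heterozygote replicates 1 and 3 together (0.137) and without NES heterozygote replicate 2 (0.0839) or 3 (0.0988) or null heterozygote replicate 1 (0.0908) or 3 (0.106). The cause was not tested.

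Same-numbered libraries did not deviate together in all pairs: r was -0.407, -0.579 and -0.178 for mutant and null heterozygote, -0.447, -0.531 and 0.028 for mutant and NES heterozygote and 0.66, 0.641 and 0.02 for the heterozygotes, so the numbers were not taken to pair samples. With the replicate block the Hsp70 sum was at -1.83 (0.0696) and Hsp68 at -1.75 (0.216) against the mean, the calls of 87A (0.0532) and Hsp70Ab (0.0527) were lost, and 87C between the heterozygotes was at -0.06.

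Genes called numbered 136 against the mean of both heterozygotes, and 501 by DESeq2, 423 with the covariate, 46 with the 5 CPM filter, 47 without null heterozygote replicates 1 and 3, 55 with the block and 33 to 3048 with 1 library left out. Against the NES heterozygote the 84 calls became 345, 951, 27 with the first 3 of these, 145 with only the groups compared, 34 with the block and 28 to 259. Against the null heterozygote the 108 became 552, 810 and 61, 19 without null heterozygote replicates 1 and 3, 51 with only the groups compared, 59 with the block and 26 to 3679, the highest without null heterozygote replicate 2. Between the heterozygotes the 72 became 341, 2417 and 33, 32 without those replicates, 24 with only the groups compared, 38 with the block and 35 to 741. Of the 7 genes Hsp70Bbb had the fewest counts, at most 17 in a library.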
